A study of Homo sapiens with 6 samples.

Results

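The mitosis genes described here are 40 genes whose products carry a cell from mitotic entry to the separation of the daughter cells, chosen by symbol and found at 1 row each among the 58735 genes of the table. Their RNA was read in SW480 cells, a long-established line from a human colorectal tumour, labelled wild type throughout. A negative control siRNA had been transfected for 3 libraries and an siRNA against ITGB4, the integrin β4 subunit, for the other 3. The series' design text calls the 3 libraries of a group biological replicates. The labels give 1 siRNA per group without its sequence, and no time after transfection. No untransfected cells and no second ITGB4 siRNA are analysed here, so effects of the siRNA's sequence and of lower ITGB4 cannot be told apart. The series title joins ITGB4 to Ezrin and Wnt/β-catenin signalling, and the mitosis genes ask whether the RNA of the cell division programme differs after the knockdown.

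Entry into mitosis is driven by the kinase CDK1 bound to its cyclins. Chromosomes then attach to the spindle through kinetochores, and the spindle checkpoint holds back the anaphase-promoting complex (APC/C), a ubiquitin ligase, until every attachment is made. APC/C with CDC20 then marks securin and cyclin B for destruction, and the cell divides in cytokinesis. RNA of most of these genes is low in early cell cycle phases and highest shortly before and during mitosis, so in a culture it follows the share of dividing cells. In bulk RNA, fewer cells in division and less of such RNA per cell cannot be told apart.

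Many of these genes share a promoter element. The cell cycle genes homology region (CHR) is the site through which the MuvB complexes act, first as a repressor with p130 and E2F proteins and later as an activator with B-MYB and FOXM1, and the nearby CCAAT box is bound by NF-Y. Promoters of 33 of the 40 genes were in the RefSeq sequences used (GRCh38.p14, 250 bases before to 50 after each start), and those of AURKA, BIRC5, BUB3, UBE2C, TTK, FOXM1 and TPX2 were not matched. The words TTTGAA or TTCGAA, searched on both strands, lay in 26 of 33 (78.8%), against 14.96% of 8754 tested genes with a promoter and 16.4% of all 35116 promoters. The word CCAAT lay in 27 of 33 (81.8%; 42.9% of tested genes, 34.6% of all promoters), and both in 1 promoter in 22 of 33 (66.7%; 6.28% and 6.38%). For E2F the words were TTCCCGC and its relative TTGGCGC, followed by the word TTCGCGC and lastly the word TTGCCGC. These, searched likewise on both strands, lay in 11 of 33 (33.3%; 26.1% and 12.97%). A match is a run of letters in this window and not a measured site.

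The windows below are 30 bases of these promoters on the gene's strand, with the CHR word in capitals, and show the word in genes of entry, checkpoint, passenger complex and cytokinesis. Each match begins between 69 and 20 bases before a RefSeq start of the gene; except for CDC20 and MKI67 the window lies inside the gene's span in the table, which begins further upstream.
CDK1 (chr10:60778397-60778426, plus strand): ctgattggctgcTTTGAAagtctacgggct
PLK1 (chr16:23678848-23678877, plus strand): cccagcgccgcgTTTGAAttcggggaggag
CCNB2 (chr15:59105105-59105134, plus strand): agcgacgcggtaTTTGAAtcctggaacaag
CDC20 (chr1:43358904-43358933, plus strand): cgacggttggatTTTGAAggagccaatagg
CDCA8 (chr1:37692481-37692510, plus strand): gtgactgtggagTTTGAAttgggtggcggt
KIF23 (chr15:69414282-69414311, plus strand): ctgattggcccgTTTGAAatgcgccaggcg
MKI67 (chr10:128126435-128126464, minus strand): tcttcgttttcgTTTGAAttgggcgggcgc
PRC1 (chr15:90994538-90994567, minus strand): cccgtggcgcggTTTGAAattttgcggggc
The windows of CDK1, CDCA8, KIF23 and MKI67 also hold attgg, the CCAAT word on the other strand, and that of CDC20 holds ccaat. In CDK1 and KIF23 it lies upstream of the capitals and in CDC20 downstream, while in CDCA8 and MKI67 its first base is the last of the capitals. Most of the 42 windows hold neither ccaat nor attgg, among them those of other matches in CDK1 and MKI67.

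The libraries held 13715266 to 15496274 reads. Genes of colon epithelium marked the cells, with means over the 6 libraries of 567.5 FPKM for KRT18, 97.1 for EPCAM, 21.3 for CDX2 and 6.25 for CDH1. VIL1 (0.706) and KRT20 (0.0237), markers of differentiated colon, were under 1. The 8 markers summed to 1471 to 1649 FPKM with control siRNA and 1523 to 1564 with ITGB4 siRNA. All 17 markers of fibroblasts, endothelium and leukocytes had means under 1 FPKM. Every level here is in FPKM, which counts fragments relative to gene length and library size. ITGB4 itself was measured at 74.3, 63.8 and 69.8 FPKM with control siRNA and 41.1, 38.1 and 37.9 FPKM with ITGB4 siRNA, with no overlap. The mean FPKM differed by -43.7%, a partial knockdown of the RNA (log2 fold change -0.81, SE 0.0658, limma adjusted p = 0.0148). For ITGB4 the exact permutation p was 0.1, the smallest that 3 against 3 libraries allow. Its limma call was lost with no filter on low values (adjusted p = 0.0618) and with the replicate number as a block (0.0564), and when some single libraries were left out, at -0.80 (adjusted p = 0.0996) without control siRNA replicate 3, -0.85 (adjusted p = 0.0709) without ITGB4 siRNA replicate 1, -0.79 (adjusted p = 0.137) without ITGB4 siRNA replicate 2 and -0.79 (adjusted p = 0.0968) without ITGB4 siRNA replicate 3.

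SW480 cells expressed 39 of the 40 genes at a mean of at least 1 FPKM, the level required for testing. Over those 39, mean levels ran from 4.92 FPKM (NUSAP1) to 186.01 FPKM (TOP2A) with a median of 37.8, and 38 of 39 lay above 6.24 FPKM, the median of all 12871 genes tested. The most abundant after TOP2A, the topoisomerase that untangles chromosomes, were UBE2C (149.7 FPKM), TPX2 (146.3), CDC20 (132.3), ANLN (105.99), AURKA (100.8), MKI67 (100.4) and CCNB1 (99.5). In this order UBE2C, TPX2 and CDC20 had overlapping library values with their neighbours, as did ANLN, AURKA, MKI67 and CCNB1, while TOP2A lay above UBE2C and CDC20 above ANLN in all 6 libraries. Of the 39 pairs of neighbours in the full order, 28 overlapped and 11 did not. At the low end stood CENPE (11.4 FPKM), NUF2 (9.17), CDC25C (7.14), NUSAP1 (4.92) and PRC1 (0.456), each apart from the next. Partners of 1 complex differed in FPKM: cyclin B1 was at 99.5 and cyclin B2 at 35.5, with CDK1, which binds both, at 27.3. NDC80 was at 25.4 against 9.17 for NUF2 and 29.7 for SPC25, its partners in the NDC80 complex. The gene lengths behind these FPKM equal all annotated exon bases in 58724 of 58735 genes. Exons that are annotated but little used lower a gene's FPKM, so the order of genes depends on that length too, which was not tested.

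**Figure D1:**
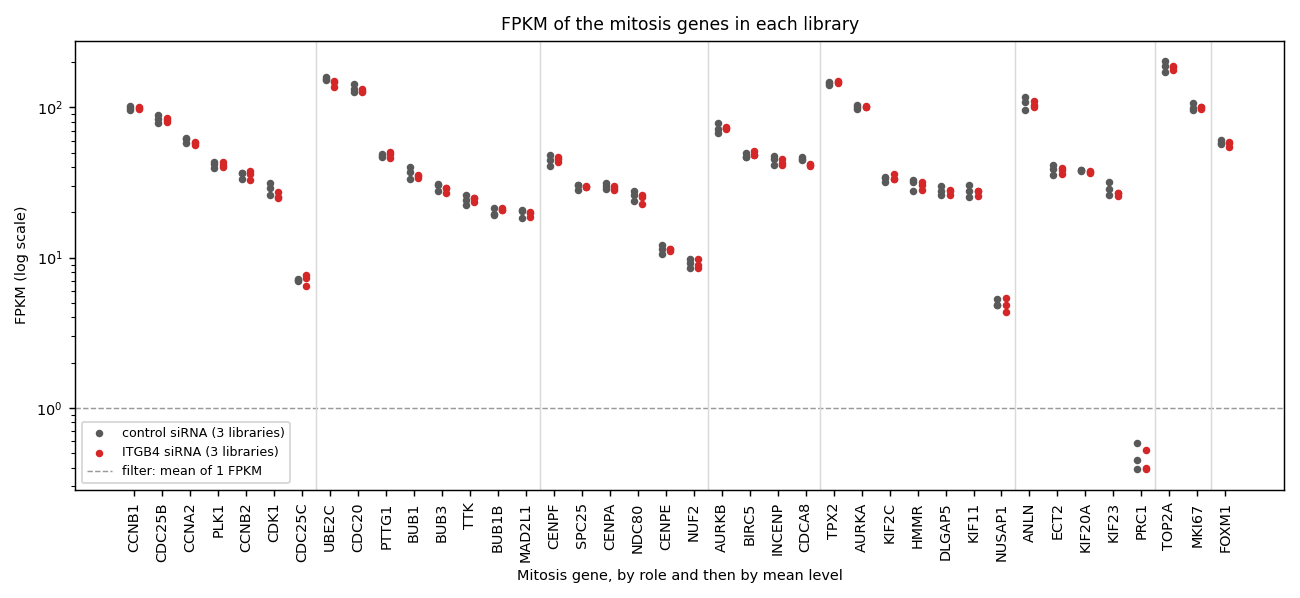
FPKM (log axis) of each of the 40 mitosis genes, ordered by role and then by mean level, with 1 point per library, grey for control siRNA and red for ITGB4 siRNA; the dashed line is the filter of 1 FPKM. The groups lie on top of each other for nearly every gene, TOP2A is the highest, and PRC1 is the 1 gene under the line.

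PRC1 and NUSAP1 stood out at the low end and both share much of their exon sequence with another gene. PRC1, which bundles the microtubules of the central spindle, was at 0.391, 0.586 and 0.451 FPKM with control siRNA and 0.523, 0.391 and 0.395 FPKM with ITGB4 siRNA, from 32 to 48 reads per library. KIF20A, KIF23 and ECT2, which act with it there, were at 37.8, 27.7 and 38.2 FPKM. In GENCODE 29, whose gene starts and ends equal those of the table for all 58735 genes, 57.6% of the exon bases of PRC1 (GRCh38 chromosome 15, 90966038 to 90995629, minus strand) also lie in exons of AC068831.7, a protein-coding gene on the same strand that averaged 1.40 FPKM. NUSAP1, a microtubule-binding protein of the spindle (chromosome 15, 41332694 to 41381050, plus strand), was at 4.87, 5.28 and 4.82 FPKM with control siRNA and 4.34, 4.87 and 5.36 FPKM with ITGB4 siRNA and shares 62.2% of its exon bases with AC087721.2 on the same strand, which is listed at 0 in all 6 libraries. The other members with any overlap on the same strand were BUB1B (10.2%) and CENPA (6.96%), and 36 had none. How the authors' counting treated a read in 2 genes is not given in the sources used here. The part of these shared bases in the low levels was not tested, and the levels of PRC1 and NUSAP1 are uncertain.

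On the opposite strand 12 members share exon bases with another gene, up to 15.9% in FOXM1, 12.5% in PLK1, 9.08% in CCNA2 and 8.78% in CDC25C. Strandedness is not in the labels, so reads there cannot be assigned to a strand. Of 14 pseudogenes and close copies of 9 members in the table, UBE2CP2 reached 2.91 FPKM in 1 library, and the others stayed under 1; PTTG2 and PTTG3P, close copies of PTTG1, were listed at 0.

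Between the siRNAs, no mitosis gene passed the test. Limma called 0 of 39 (adjusted p of 0.659 or more), while over all 12871 genes it called 6, or 0.0466%, ITGB4 among them. At an unadjusted p under 0.05 there was 1 mitosis gene, CDCA8, or 2.56% of 39, against 5.83% of all genes tested. That count was 5 without control siRNA replicate 1 and 2 without control siRNA replicate 2 (12.8% and 5.13%), where 10.2% and 6.61% of all genes tested were at that p, and 1 without each of the other libraries. Groups stood fully apart in 2 genes, CDCA8 and UBE2C (5.13%), against 11.1% of all genes tested. Limma-voom on reads recovered from the FPKM also called 0 of 39 and had 1 at an unadjusted p under 0.05, where it called 0.202% and 5.82% of all genes. With all 6 libraries these shares of the mitosis genes were under those of all genes tested, and without control siRNA replicate 1 the share at an unadjusted p under 0.05 was above it.

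The size of what could be missed is set by the intervals. The log2 fold changes of the 39 genes ran from -0.15 (CDK1) to 0.07 (BUB1B), and their unadjusted 95% intervals spanned -0.32 (CDK1) to 0.19 (CENPF). In 27 of 39 the whole interval lay between -0.2 and 0.2. The lowest end (CDK1) and the highest end (CENPF) correspond to a fall by 19.9% and a rise of 14.4% on the scale of FPKM + 1. The median size of the difference without its sign was 0.0308 (log2), beside 0.0586 over all genes tested and 0.0395 over the 2431 with a mean of at least 20 FPKM. The signed median was -0.022, with 27 of 39 below 0 (69.2%), beside -0.003 and 51.5% over all genes tested. That lean was lost in some fits without 1 library and kept in the others. Below 0 lay 17 of 39 without control siRNA replicate 2 (median 0.014) and 17 of 39 without ITGB4 siRNA replicate 1 (median 0.005). Without control siRNA replicates 1 and 3 in turn, 29 (median -0.048) and 27 (median -0.013) lay below 0. Without ITGB4 siRNA replicates 2 and 3 in turn, 30 (median -0.037) and 28 (median -0.023) did.

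**Figure D2:**
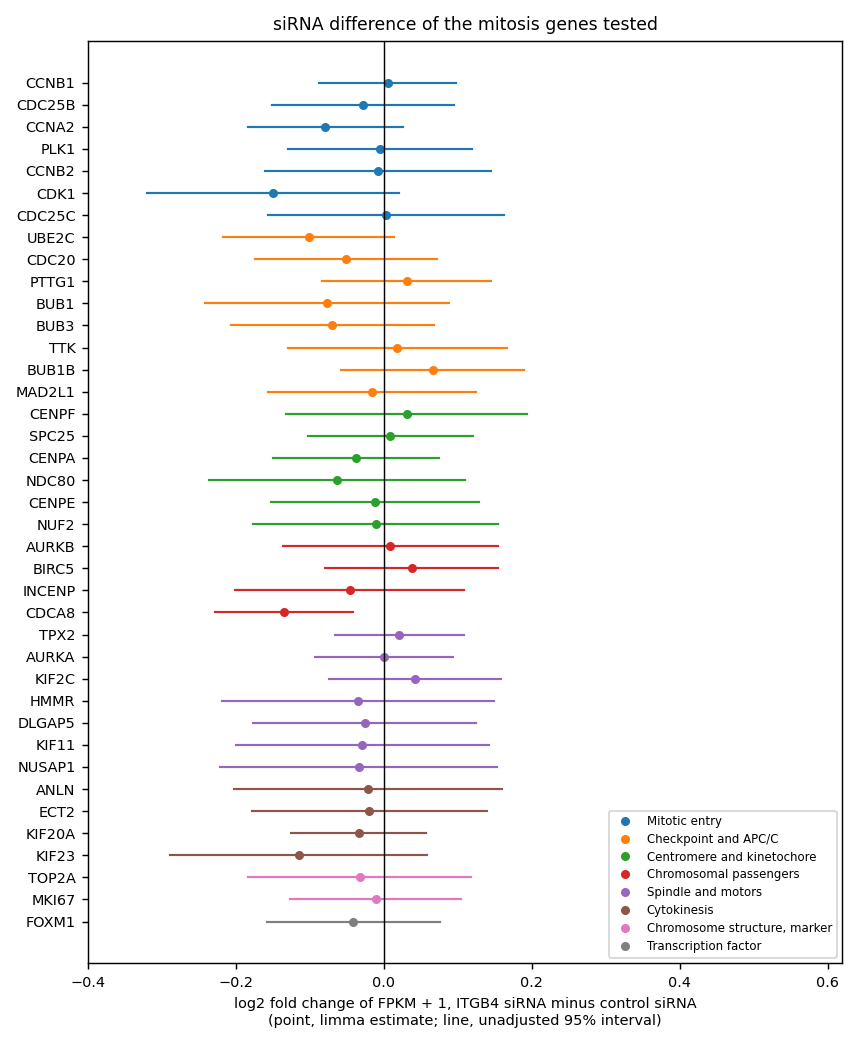
The log2 fold change of FPKM + 1 (ITGB4 siRNA minus control siRNA) of the 39 mitosis genes tested, coloured by role; points are limma estimates from 3 against 3 libraries and lines their unadjusted 95% intervals. Every interval except that of CDCA8 crosses 0, and all estimates lie between -0.15 and 0.07.

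The genes of mitotic entry showed 2 estimates above 0 and 5 below, with a median of -0.008. CCNB1, cyclin B1, the main partner of CDK1 at entry, was at 99.6, 101.98 and 96.4 FPKM in control siRNA replicates 1, 2 and 3 and 98.2, 100.97 and 99.8 FPKM in ITGB4 siRNA replicates 1, 2 and 3. The ITGB4 siRNA libraries lay inside the range of the controls (log2 fold change 0.01, 95% interval -0.09 to 0.10, limma adjusted p = 0.998). PLK1, the polo kinase of centrosome maturation and mitotic exit, was at 43.1, 39.4 and 42.3 FPKM with control siRNA and 43.2, 41.2 and 39.9 FPKM with ITGB4 siRNA, again interleaved (log2 fold change -0.01, 95% interval -0.13 to 0.12, limma adjusted p = 0.998). CDK1, the kinase that phosphorylates many mitotic substrates, was at 26.2, 29.1 and 31.2 FPKM with control siRNA and 24.99, 27.3 and 25.2 FPKM with ITGB4 siRNA. Its lowest control library lay inside the ITGB4 siRNA range and the other control libraries above it (log2 fold change -0.15, 95% interval -0.32 to 0.02, limma adjusted p = 0.926), the lowest estimate of the 39 with all libraries. It ran from -0.21 to -0.09 when 1 library was left out. It no longer lay below CDCA8 without control siRNA replicate 3 (-0.09 against -0.14) or without ITGB4 siRNA replicate 1 (-0.13 against -0.15). CCNA2, cyclin A2, which acts earlier, was at 58.3, 62.8 and 62.1 FPKM with control siRNA and 58.6, 57.9 and 56.7 FPKM with ITGB4 siRNA, with 1 ITGB4 siRNA library just above the lowest control (log2 fold change -0.08, 95% interval -0.18 to 0.03, limma adjusted p = 0.951). Cyclin B2 (CCNB2) averaged 35.6 ± 1.74 and 35.4 ± 2.44 FPKM, and the CDK1-activating phosphatases CDC25B and CDC25C 84.02 ± 4.73 and 82.3 ± 2.24 FPKM and 7.13 ± 0.114 and 7.16 ± 0.614 FPKM, control and ITGB4 siRNA in turn (SD, n = 3 each), all with overlapping groups.

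Among the 8 checkpoint and APC/C genes, 3 estimates lay above 0 and 5 below (median -0.034). UBE2C, the ubiquitin-conjugating enzyme of the APC/C, was at 159.8, 151.4 and 153.8 FPKM in control siRNA replicates 1, 2 and 3 and 136.4, 147.2 and 149.7 FPKM in ITGB4 siRNA replicates 1, 2 and 3. Every ITGB4 siRNA library lay below every control, by as little as the step from 151.4 to 149.7 FPKM, and the test was not passed (log2 fold change -0.10, 95% interval -0.22 to 0.01, limma adjusted p = 0.926; exact permutation p = 0.1, the smallest possible). Without ITGB4 siRNA replicate 1 the estimate was -0.06. CDC20, which activates the APC/C, was at 143.6, 127.2 and 133.5 FPKM with control siRNA and 132.6, 129.4 and 127.7 FPKM with ITGB4 siRNA, with control replicate 1 the highest and the rest overlapping (log2 fold change -0.05, 95% interval -0.17 to 0.07, limma adjusted p = 0.998). Its estimate was -0.00505 without that library and -0.09 without control siRNA replicate 2. PTTG1, securin, which the APC/C destroys to release separase, averaged 47.7 ± 0.949 and 48.8 ± 2.32 FPKM (SD, n = 3 each). The checkpoint kinases BUB1 and TTK averaged 36.9 ± 3.41 and 34.8 ± 0.694 FPKM and 24.2 ± 1.82 and 24.5 ± 0.739 FPKM, and BUB1B, the BubR1 protein of the inhibitory complex, 20.1 ± 1.14 and 21.04 ± 0.264 FPKM (SD, n = 3 each). BUB1 ran from -0.15 to -0.02 in log2 when 1 library was left out, the ends without control siRNA replicates 1 and 2. With all libraries, BUB1B had the highest estimate of the 39 (0.07, 95% interval -0.06 to 0.19). It was not the highest without control siRNA replicate 1 (0.041, with AURKB at 0.070). Nor was it without ITGB4 siRNA replicate 3 (0.056, with CDC25C at 0.065). MAD2L1 and BUB3, other components of that complex, averaged 19.8 ± 1.23 and 19.6 ± 0.751 FPKM and 29.8 ± 1.60 and 28.4 ± 1.32 FPKM (SD, n = 3 each). All of these other than UBE2C had overlapping groups.

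The chromosomal passenger complex couples the kinase Aurora B to centromeres and later to the midzone, and its 4 genes were split 2 and 2 around 0. CDCA8, borealin, a targeting subunit, was at 44.98, 46.7 and 45.1 FPKM in control siRNA replicates 1, 2 and 3 and 42.1, 40.96 and 41.1 FPKM in ITGB4 siRNA replicates 1, 2 and 3. All 3 ITGB4 siRNA libraries lay below all 3 controls, a difference of -9.16%, larger than the spread within either group. Its estimate, -0.14 in log2 with SE 0.0392 and a 95% interval of -0.23 to -0.04, missed the threshold once adjusted over all genes (limma unadjusted p = 0.0109, adjusted p = 0.659; exact permutation p = 0.1). When 1 library was left out it stayed between -0.15 and -0.12. Its partners showed no such gap. AURKB, the kinase, was at 79.3, 67.9 and 71.5 FPKM with control siRNA and 73.2, 74.7 and 71.9 FPKM with ITGB4 siRNA, with the highest and the lowest value both among the controls (log2 fold change 0.01, 95% interval -0.14 to 0.15, limma adjusted p = 0.998). BIRC5, survivin, was at 50.1, 46.5 and 47.04 FPKM with control siRNA and 51.3, 48.01 and 48.1 FPKM with ITGB4 siRNA (log2 fold change 0.04, 95% interval -0.08 to 0.15, limma adjusted p = 0.998), and INCENP, the scaffold, averaged 44.7 ± 3.33 and 43.2 ± 1.99 FPKM (-0.05 in log2; SD, n = 3 each). Both had overlapping groups.

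Of the 6 centromere and kinetochore genes, 2 estimates lay above 0 and 4 below, from -0.06 (NDC80) to 0.03 (CENPF), and all groups overlapped. CENPA, the histone H3 variant that marks centromeres, averaged 30.03 ± 1.19 and 29.2 ± 0.748 FPKM, and CENPE, the kinesin that moves chromosomes to the metaphase plate, 11.4 ± 0.771 and 11.3 ± 0.257 FPKM (SD, n = 3 each). CENPF, a large protein of the outer kinetochore, averaged 44.6 ± 3.86 and 45.4 ± 1.70 FPKM. NDC80, NUF2 and SPC25, which form the microtubule-binding NDC80 complex with SPC24, averaged 26.001 ± 1.95 and 24.8 ± 1.68 FPKM, 9.21 ± 0.5995 and 9.13 ± 0.646 FPKM and 29.6 ± 1.31 and 29.8 ± 0.401 FPKM (SD, n = 3 each).

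Spindle genes were as close. AURKA, the kinase of spindle poles, was at 98.2, 104.2 and 99.98 FPKM with control siRNA and 100.3, 100.02 and 102.2 FPKM with ITGB4 siRNA, and TPX2, which activates it on microtubules, at 142.04, 147.8 and 145.9 FPKM with control siRNA and 145.2, 146.8 and 150.2 FPKM with ITGB4 siRNA. The groups of both were interleaved (log2 fold change 0.00, 95% interval -0.09 to 0.09, limma adjusted p = 0.999 for AURKA; 0.02 for TPX2). KIF11, the Eg5 motor that pushes poles apart, averaged 27.8 ± 2.46 and 27.2 ± 1.25 FPKM, and KIF2C, the MCAK microtubule depolymerase, 33.4 ± 1.10 and 34.4 ± 1.42 FPKM (SD, n = 3 each). HMMR and DLGAP5, microtubule-associated proteins of spindle assembly, averaged 30.9 ± 2.74 and 30.1 ± 1.89 FPKM and 27.96 ± 2.09 and 27.4 ± 1.02 FPKM (SD, n = 3 each). The 7 estimates of this role, with NUSAP1, lay between -0.03 and 0.04, 3 above 0 and 4 below.

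The 4 tested cytokinesis genes all had estimates below 0, and the groups of each overlapped. KIF23, the MKLP1 motor of the centralspindlin complex, was at 26.1, 31.8 and 28.8 FPKM with control siRNA and 25.8, 26.8 and 26.96 FPKM with ITGB4 siRNA. Control replicate 1 lay inside the ITGB4 siRNA range while the other controls lay above it (log2 fold change -0.12, 95% interval -0.29 to 0.06, limma adjusted p = 0.983). The estimate was -0.18 without control siRNA replicate 1 and -0.05 without control siRNA replicate 2. KIF20A, MKLP2, which carries the passenger complex to the midzone, was at 37.5, 38.6 and 38.6 FPKM with control siRNA and 36.9, 37.4 and 37.7 FPKM with ITGB4 siRNA, the closest replicates of this role (log2 fold change -0.03, 95% interval -0.13 to 0.06, limma adjusted p = 0.998). ANLN, anillin, a scaffold of the contractile ring, and ECT2, the RhoA activator of cleavage, averaged 106.9 ± 10.6 and 105.04 ± 4.53 FPKM and 38.5 ± 3.03 and 37.9 ± 1.65 FPKM (SD, n = 3 each).

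The genes most used as readouts of proliferation did not separate the groups. MKI67, the Ki-67 antigen on mitotic chromosomes, was at 96.3, 106.9 and 99.3 FPKM in control siRNA replicates 1, 2 and 3 and 98.3, 100.4 and 101.3 FPKM in ITGB4 siRNA replicates 1, 2 and 3. Its highest and lowest values were both controls (log2 fold change -0.01, 95% interval -0.13 to 0.10, limma adjusted p = 0.998). TOP2A was at 173.2, 203.4 and 188.3 FPKM with control siRNA and 177.1, 186.3 and 187.8 FPKM with ITGB4 siRNA, with all ITGB4 siRNA libraries inside the range of the controls (log2 fold change -0.03, 95% interval -0.18 to 0.12, limma adjusted p = 0.998). FOXM1, the transcription factor that drives many of these genes, was at 61.2, 57.1 and 57.998 FPKM with control siRNA and 58.4, 58.5 and 54.3 FPKM with ITGB4 siRNA, also overlapping (log2 fold change -0.04, 95% interval -0.16 to 0.08, limma adjusted p = 0.998).

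Split by the promoter word shown above, the 25 tested mitosis genes with a CHR word had a median log2 fold change of -0.028 (21 below 0) and the 7 without it 0.005 (3 below 0). Over all genes tested the medians were -0.005 for 1310 genes with the word and -0.004 for 7444 without. The other words gave medians below 0 on both sides: -0.029 with CCAAT and -0.012 without, and -0.020 with an E2F word and -0.029 without. With both CHR and CCAAT it was -0.029, and -0.011 in the rest. The SD between replicates of the median of all 39 genes was 0.0436. It does not measure the spread of a difference between gene sets read in the same libraries. No split was tested, and the lean of the 39 genes below 0 was lost without control siRNA replicate 2 or ITGB4 siRNA replicate 1.

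The mitosis genes varied between replicates of a group. Control siRNA replicate 1 had the lowest of the 6 values in 16 of 39 genes and ITGB4 siRNA replicate 1 in 11, while control siRNA replicate 2 had the highest in 22. The median deviation from the gene's mean over the 6 libraries, in log2(FPKM + 1), was -0.053, 0.056 and 0.019 in control replicates 1, 2 and 3 and -0.041, 0.004 and 0.009 in ITGB4 siRNA replicates 1, 2 and 3. Both first replicates were thus below the other 4 libraries, and the groups overlapped. Over all genes tested the same medians lay between -0.002 and 0.002. Within a group, the median difference between a pair of replicates (log2, without sign) across the 39 genes ran from 0.0304 (ITGB4 siRNA replicates 2 and 3) to 0.138 (control siRNA replicates 1 and 2), and over all genes tested the same pairs differed by 0.0722 and 0.163. The SD between replicates was larger than the siRNA difference in 32 of 39 genes. The median SD was 0.0711 and the median difference without sign 0.0308. Over all genes tested these were 0.0973 and 0.0586, so the same order held there. The SD is that of single libraries and the siRNA difference is between means of 3, which vary less. This order therefore does not weigh replicate against siRNA.

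This variation was not the same for all members and moved with base composition. The 22 genes whose longest GENCODE transcript had under 45% GC were lower in replicate 1 than in the mean of replicates 2 and 3 in 21 cases with control siRNA and 21 with ITGB4 siRNA, with median differences of -0.156 and -0.086 (log2). Of the 17 genes at or above 45%, 8 were lower in each group, with medians of 0.023 and 0.036. ANLN (40.03% GC) differed by -0.23 and -0.09 in control and ITGB4 siRNA, HMMR (36.7%) by -0.21 and -0.15, and INCENP (59.6%) by 0.15 and 0.11. CDC20 (57.9%) differed by 0.14 and 0.04, higher in both first replicates. Across the 39 genes, which share libraries and are not independent replicates, the difference went with GC content at Pearson's r = 0.906 (Spearman's rho 0.873) with control siRNA and 0.681 (0.642) with ITGB4 siRNA. Over 12866 tested genes with a transcript sequence the values were 0.499 (0.657) and 0.260 (0.452), so the pattern was shared by genes other than those of mitosis. The siRNA difference of the 39 genes went with GC content at r = 0.0664 (rho 0.0877). With the log2 of gene length, the replicate 1 difference of the 39 genes went at r = -0.437 (rho -0.483) with control siRNA. With ITGB4 siRNA these were -0.0392 (-0.0512). GC content and length were not separated.

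**Figure D3:**
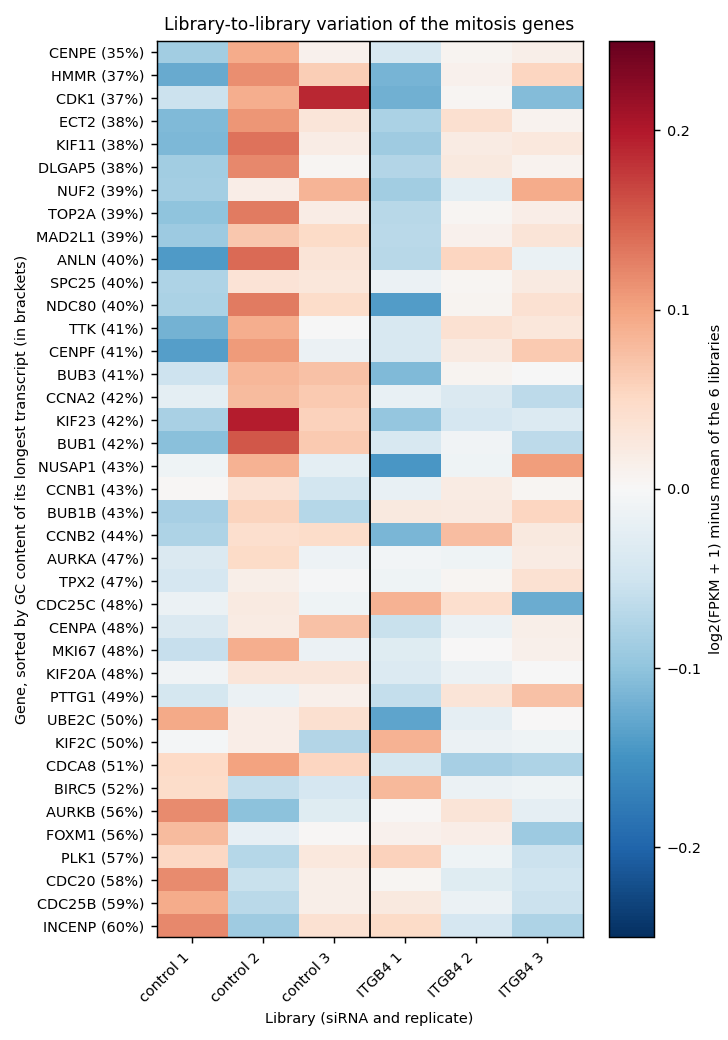
Deviation of log2(FPKM + 1) from the mean of the 6 libraries (colour, red above and blue below) for the 39 mitosis genes tested, in rows sorted by the GC content of the longest transcript, and the 6 libraries in columns with the siRNA groups apart. Replicate 1 of both groups is mostly blue at low GC content and mostly red at the bottom, and control replicate 2 is the reverse.

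**Figure D4:**
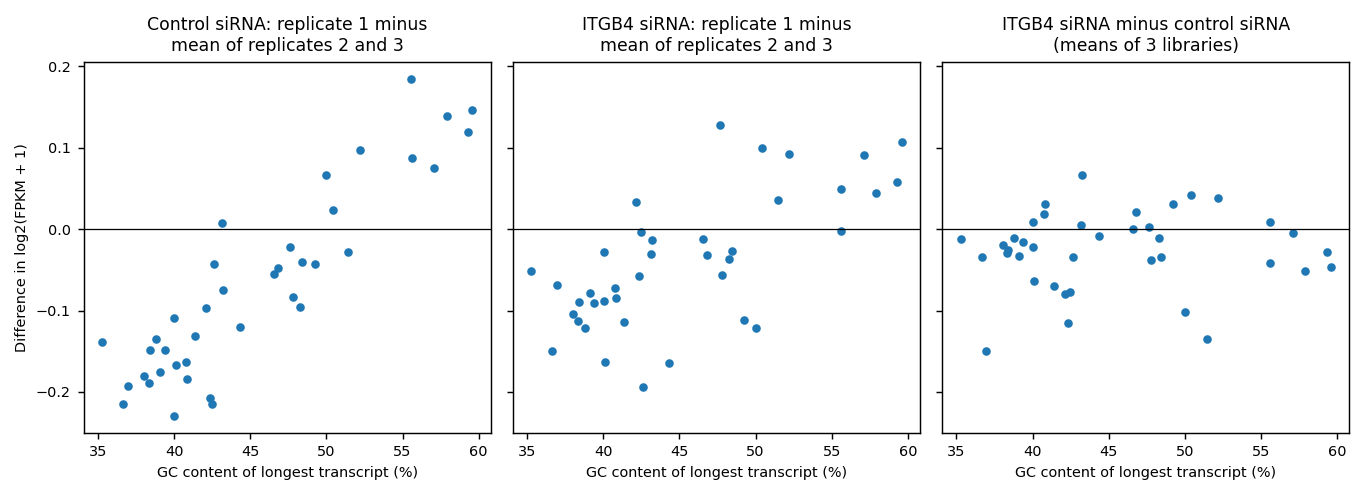
Differences in log2(FPKM + 1) against transcript GC content (percent), 1 point per mitosis gene tested: replicate 1 minus the mean of replicates 2 and 3 within control siRNA (left) and within ITGB4 siRNA (middle), and ITGB4 siRNA minus control siRNA (right). The left panel rises steeply (r = 0.906) and the middle one less (r = 0.681), while the right panel is flat (r = 0.0664).

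With GC content regressed out of every library, an alternative chosen after seeing the data, limma called 49 of 12866 genes and still 0 of the 39, of which 5 (12.8%) had an unadjusted p under 0.05, beside 10.9% of all genes tested. The 5 were CDK1, CDCA8, CDC20, KIF23 and UBE2C, each below 0. CDCA8 was at -0.141, below CDK1 (-0.138), with the smallest limma adjusted p, 0.188. Of the 39, 27 lay below 0, with a median of -0.014. Without replicate 1 of either group, also chosen after seeing the data, 0 of 39 were called and 5 (12.8%) had an unadjusted p under 0.05, beside 8.16% of all genes tested, of which 0 were called, with 30 of 39 below 0 and a median of -0.033.

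The wider mitotic machinery behaved alike in that limma called none of it. Of 96 other mitosis genes, all tested, 0 were called, 3 had an unadjusted p under 0.05 (2 higher, 1 lower; limma-voom 0 called and 3 at that p), and 11 had groups that did not overlap, 3 higher and 8 lower. These were 3.12% and 11.5% of the 96, beside 5.83% and 11.1% of all genes tested. Their median was -0.032, with 63 below 0. The largest differences were in kinetochore genes. ZW10, which brings the checkpoint and dynein to kinetochores, was at 15.9, 16.9 and 15.1 FPKM with control siRNA and 19.1, 21.8 and 20.99 FPKM with ITGB4 siRNA. All ITGB4 siRNA libraries lay above all controls (log2 fold change 0.35, SE 0.0657, limma adjusted p = 0.314; limma-voom 0.0834), which did not pass. CENPK, of the inner kinetochore, was at 4.33, 5.81 and 5.04 FPKM with control siRNA and 3.60, 3.61 and 3.74 FPKM with ITGB4 siRNA, with no overlap in the other direction (log2 fold change -0.37, limma adjusted p = 0.540).

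In the other sets the genes with the smallest p had smaller estimates. Among 17 APC/C genes, 5 above 0 and 12 below, ANAPC13 was at -0.09 (limma adjusted p = 0.998) in log2 and ANAPC4 at 0.10 (limma adjusted p = 0.998), both with overlapping groups. Among 13 cohesin and separase genes, 2 above 0 and 11 below, CDCA5, sororin, was at -0.09 (limma adjusted p = 0.976) and SGO1, shugoshin, at -0.11 (limma adjusted p = 0.998), again overlapping. In condensin, which compacts chromosomes, NCAPH2 was at -0.11 (limma adjusted p = 0.998) with overlap and NCAPH at -0.05 (limma adjusted p = 0.998) without. KIF18B, a kinesin of astral microtubules, was at -0.13 (limma adjusted p = 0.917) and SPAG5, astrin, at -0.09 (limma adjusted p = 0.938), both without overlap and among 18 kinesin and spindle genes split 9 and 9 around 0. Among 12 genes of mitotic entry control, 11 had an estimate below 0, CDKN1A, the CDK inhibitor p21, among them at -0.16 (limma adjusted p = 0.951). ENSA, which inhibits the phosphatase opposing CDK1, was the exception, at 15.8 ± 0.687 and 17.4 ± 0.356 FPKM (limma 0.14 in log2, adjusted p = 0.806; SD, n = 3 each), with no overlap.

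Of 22 genes that control transcription of the cell cycle genes, 21 were tested and 0 were called, with a median of -0.024. Limma-voom called 0 and had 0 at an unadjusted p under 0.05. In limma 2 were at that p (9.52%, beside 5.83% of all genes tested). These were LIN52, a MuvB subunit, at 5.07 ± 0.0781 and 4.47 ± 0.229 FPKM (limma -0.15 in log2, adjusted p = 0.813; SD, n = 3 each), and NFYB, a subunit of the factor that binds CCAAT, at 4.72 ± 0.412 and 4.08 ± 0.138 FPKM (limma -0.17 in log2, adjusted p = 0.852; SD, n = 3 each). In both, all ITGB4 siRNA libraries lay below all controls. They were the 2 of 21 with groups that did not overlap (9.52%, beside 11.1% of all genes tested). The 41 DNA replication genes, the part of the cell cycle just before, had a median of -0.009 (26 below 0) and 0 called. At an unadjusted p under 0.05 there were 0 in limma or limma-voom, beside 5.83% and 5.82% of all genes tested. Groups did not overlap in 2 (4.88%, beside 11.1% of all genes tested). LIG1, DNA ligase 1, was at -0.10 (limma adjusted p = 0.945) in log2 and RPA2, of the complex that coats single-stranded DNA, at -0.08 (limma adjusted p = 0.951), and the groups of both overlapped. The difference between the medians of the mitosis and replication genes was not tested.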

How the data were processed

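The authors deposited FPKM for 58735 genes of the GRCh38 build, with gene lengths and a mean FPKM per group. DESeq2 and edgeR are named without a role per the submitters' processing notes, and the aligner and counting tool are not given in the sources used here. Poly-T beads selected the RNA, per the labels' protocols. Groups and replicate numbers came from the sample titles, and gene lengths, an other unit in bases, are those the authors deposited.

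FPKM times gene length came out as whole multiples of 1 read for 100% of values (tolerance 0.01), which gave the reads per gene. Genes with a mean of at least 1 FPKM (12871) were fitted as log2(FPKM + 1) with limma 3.58.1 (R 4.3.3), variance trend, 1 siRNA coefficient, two-sided, Benjamini-Hochberg adjustment over all genes tested, called at an adjusted p under 0.05. Fold changes on that scale understate low genes. Exact permutation tests used the mean FPKM. In 5 simulations of this comparison with 12871 genes, of which 200 were changed, limma recovered 11.6%, 61.2%, 84.4% and 97.2% of genes changed 1.25-, 1.5-, 2- and 4-fold, and 5.92% of calls were false; no smaller change was simulated. Those simulations gave every gene the same dispersion, the median of the control libraries, and no replicate difference that went with GC content. With 200 changed genes, against 6 calls in the data, the adjusted threshold is easier to pass. The shares recovered can thus overstate what would be found here. GC content came from GENCODE 29 transcripts and promoters from RefSeq (GRCh38.p14), in Python 3.11.15.

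The members and lists were chosen with earlier results of these data known. Named were all 40 members, ITGB4 and the 2 genes with the smallest p in each other set.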

Additional observations from a re-analysis of the deposited data

How the results depend on the processing

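In every alternative run, 0 mitosis genes were called, with adjusted p-values of 0.188 or more. Their median ran from -0.048 to 0.014 when 1 library was left out and moved by less than the SD between replicates in each alternative. Of 623 comparisons of single members, 567 kept direction and 56, in 22 genes within 0.0464 of 0, turned sign; the cause was not tested. Leaving out 1 library gave ANLN -0.098 to 0.044, AURKA -0.018 to 0.025, AURKB -0.040 to 0.070, CCNB1 -0.016 to 0.024, CCNB2 -0.049 to 0.046, CDC25B -0.068 to 0.012, CDC25C -0.040 to 0.065, CENPE -0.059 to 0.031, CENPF -0.031 to 0.092, DLGAP5 -0.075 to 0.028, ECT2 -0.080 to 0.030, HMMR -0.106 to 0.015, INCENP -0.103 to 0.00221, KIF11 -0.092 to 0.032, MAD2L1 -0.066 to 0.014, MKI67 -0.043 to 0.031, NUF2 -0.061 to 0.029, NUSAP1 -0.095 to 0.030, PLK1 -0.042 to 0.021, SPC25 -0.028 to 0.028, TOP2A -0.091 to 0.024, TTK -0.036 to 0.068. PLK1 was at 0.000106 in limma-voom. Without replicate 1 of either group, CCNB2 0.00619, CDC25C -0.047, AURKA -0.014, TTK -0.012, CENPF -0.00256, SPC25 -0.018, NUSAP1 0.016 turned sign, and with GC content regressed out AURKA (-0.000534) and CENPE (0.00222). Over all genes tested, limma called 0 with no low-value filter (1356 at an unadjusted p under 0.05), 0 with the replicate block (1064), 0 without replicate 1 of either group (1050), 0 to 7 when 1 library was left out (0 without any of the ITGB4 siRNA replicates, 3 without control siRNA replicate 3), 49 with GC content regressed out and 26 in limma-voom. ITGB4 lost its call at -0.81 with no filter (adjusted p = 0.0618), -0.81 with the replicate block (0.0564) and -0.80 without replicate 1 of either group (0.0797), and ran from -0.87 to -0.76 when 1 library was left out, with adjusted p-values up to 0.137. The fits without libraries hold fewer samples and that with no filter more genes; for the others the cause was not tested. Deviations of libraries with the same number correlated at 0.173, 0.102 and -0.01003 over all genes tested, where numbers 1 and 2 matched their own number best and number 3 did not, so the numbers are not taken as pairing the libraries. Over the mitosis genes alone the same correlations were 0.632, 0.331 and 0.155, and there number 1 matched its own best and numbers 2 and 3 did not. With the block, 1 of the 39 had an unadjusted p under 0.05, with adjusted p-values of 0.501 or more.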
